A study of Caenorhabditis elegans with 4 samples.

Results

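The lbp genes of Caenorhabditis elegans encode intracellular lipid-binding proteins, the worm's relatives of the vertebrate fatty acid binding proteins. The members were the genes lbp-1 to lbp-9, taken by symbol, and 8 of these 9 had a probe under their name among the 14958 named genes and 20140 features of the arrays. Each of the 8 was read by 1 probe. The gene lbp-9 (Y40B10A.1) had no probe under its name and was not analysed here. A total of 6 members had a value on all 4 arrays, lbp-4 lacked one on prep 4 and lbp-5 lacked one on prep 2, and all 8 passed the filter of at least 3 measured arrays.

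Every array carried RNA of a wild-type mixed reference in channel 1 and mRNA of glp-4 adults in channel 2, with adult preps numbered 1 to 4. The product of glp-4 is a valyl-tRNA synthetase. Temperature-sensitive glp-4 mutants grown at the restrictive temperature become adults with very few germ cells. The allele, the temperature, the age of the adults, and the stages or sexes in the reference are not stated in the labels. Nothing in the labels says that the preps were separate cultures. SDs therefore describe how these 4 preps spread, and that spread may be technical. The p-values and intervals set the mean against this spread, which limma moderates by the spread of all features. Values are log2 ratios of glp-4 adults over reference. This direction is likely and rests on the array descriptions and the channel order, since no dye is named, and with the opposite direction every sign would turn. A ratio gives a transcript's share of the RNA in one sample against the other, so it is not a level, and ratios of different genes do not say which gene is more abundant.

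Intracellular lipid-binding proteins are small beta-barrel proteins that hold a fatty acid or a similar lipid in an inner cavity and carry it through the watery parts of the cell. In C. elegans the main fat store is the intestine, which takes up lipids, loads them into yolk for oocytes and also signals through them. LBP-8 is known as a carrier that brings lipids released in intestinal lysosomes by the lipase LIPL-4 to the nucleus, where the nuclear hormone receptors NHR-49 and NHR-80 respond and the animal lives longer. LBP-1, LBP-2 and LBP-3 carry a signal for secretion, which is unusual for the family, and LBP-3 is known as a secreted carrier from intestine to neurons.

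Of the 8 lbp genes tested, 6 were higher in glp-4 adults, 0 were lower and 2 did not pass, with adjusted p under 0.05 in limma over all 19981 tested features as the threshold. Among all tested features, 17.0% were higher and 20.9% lower by the same rule, 37.9% in all. The genes lbp-6, lbp-7 and lbp-8 passed at more than 4-fold higher, as did 1.87% of all tested features, and with lbp-2 a total of 4 members passed at least at 2-fold higher, beside 7.83% of features. The X-linked genes lbp-1, lbp-2 and lbp-3 were between 1.52-fold and 2.66-fold higher, and lbp-4 and lbp-5 had means below 0 without passing. The median over the 8 members was 1.15, beside 0.00 over all tested features. The same 6 genes had ratios above 0 on every array, as did 26.7% of all tested features, and lbp-5 was below 0 on each of its 3 measured arrays, as were 28.8%.

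**Figure D1:**
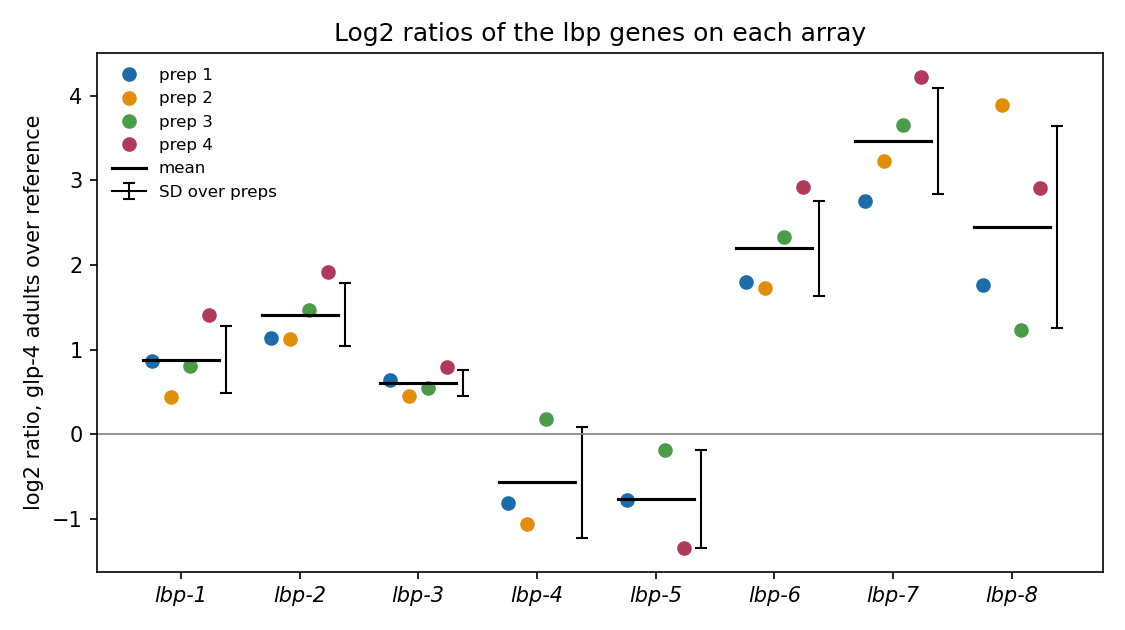
Log2 ratios of glp-4 adults over reference (vertical axis) for the 8 lbp genes, with 1 point per array coloured by prep, the mean as a horizontal line and the SD over preps as the error bar. The 4 points of lbp-7 lie between 2.75 and 4.23, those of lbp-8 are the most spread, and lbp-4 and lbp-5 have 3 points each.

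Markers of the cell types in these worms were read from the same fit, in which 17.0% of all tested features were higher and 20.9% lower. All 10 markers of germ cells and oocytes were lower (median -3.20, array means from -3.96 to -3.12), as were 29 of 30 major sperm protein genes. Of 10 intestinal markers, 9 were higher and 1 did not pass (median 2.48, array means from 2.02 to 2.22). Of 8 body wall muscle markers, 5 were higher and 0 lower (median 0.92), of 10 epidermal markers 3 were higher and 4 lower (median -0.38), of 9 pharyngeal markers 1 was higher and 2 were lower (median 0.11), of 10 neuronal markers 6 were lower and 0 higher (median -0.82), and of 6 early embryo markers 2 were higher and 0 lower (median 0.05). In whole-worm RNA a different number of cells of a type and a different amount of RNA per cell cannot be told apart. The part of these cell types in the lbp ratios was not tested.

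The gene lbp-7 (T22G5.2) had the highest mean of the family. Its log2 ratios were 2.75, 3.23, 3.65 and 4.23 on preps 1 to 4. All 4 lay far above 0, and on each array the gene stood between the 98.9th and the 99.8th percentile of all features. The mean was 3.46 ± 0.63 (SD, n = 4 preps), 11.04-fold higher in glp-4 adults (adjusted p = 0.000169, limma, 95% confidence interval 2.88 to 4.05 on the log2 scale). It ranked 54th from the top of 19981 tested features. Of the 10 intestinal markers, 9 passed in the same direction as the 6 higher lbp genes, and 1 did not pass. Of 8 body wall muscle markers, 5 did so and 0 were lower. Epidermal markers went both ways (3 of 10 higher, 4 lower), as did pharyngeal ones (1 of 9 higher, 2 lower). Neuronal markers were higher in 0 of 10 and lower in 6, and early embryo markers were higher in 2 of 6. The shares over all tested features were 17.0% higher and 20.9% lower. The array means of all 10 intestinal markers were even over the preps (2.02 to 2.22). The part of any of these cell types in the lbp ratios was not tested.

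The nuclear lipid carrier gene lbp-8 (T22G5.6) was the next by its mean and the least even across preps. Its log2 ratios were 1.76, 3.89, 1.23 and 2.90 on preps 1 to 4. Preps 2 and 4 were high and preps 1 and 3 low, with all 4 above 0. The mean was 2.45 ± 1.19 (SD, n = 4 preps), 5.45-fold higher (adjusted p = 0.00400, limma, interval 1.47 to 3.42), and its SD stands beside a median SD of 0.35 over all tested features. On prep 2 the ratio of lbp-8 exceeded that of lbp-7, whereas on the other 3 preps it was the lower of this pair.

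The gene lbp-6 (W02D3.5) was close to lbp-8 in its mean, with a smaller SD. Its log2 ratios were 1.80, 1.72, 2.33 and 2.92 on preps 1 to 4. All 4 were above 0, with preps 3 and 4 above preps 1 and 2. The mean was 2.19 ± 0.56 (SD, n = 4 preps), 4.58-fold higher (adjusted p = 0.000633, limma, interval 1.65 to 2.73). The mean difference of lbp-8 minus lbp-6 on the same array was 0.25 ± 1.38, and lbp-8 was above lbp-6 on 1 of 4 arrays, so these members do not have an order beyond their spread.

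The genes with a secretion signal were all higher, by less. For lbp-2 (F40F4.2) the log2 ratios were 1.14, 1.12, 1.47 and 1.92 on preps 1 to 4. The values were even over preps 1 and 2 and highest on prep 4. The mean was 1.41 ± 0.37 (SD, n = 4 preps), 2.66-fold higher (adjusted p = 0.00143, limma). For lbp-1 (F40F4.3) they were 0.87, 0.44, 0.81 and 1.41 on preps 1 to 4, again highest on prep 4 and lowest on prep 2. The mean of lbp-1 was 0.88 ± 0.40 (SD, n = 4 preps), 1.84-fold higher (adjusted p = 0.0108, limma).

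The gene lbp-3 (F40F4.4), whose product is known to travel from the intestine to neurons, had the smallest difference among the 6. Its log2 ratios were 0.63, 0.45, 0.55 and 0.80 on preps 1 to 4. These values were the most even of the family. The mean was 0.61 ± 0.15 (SD, n = 4 preps), 1.52-fold higher (adjusted p = 0.0173, limma). With 3 arrays in place of 4 the adjusted p in limma was 0.0517 without prep 1, 0.0516 without prep 3 and 0.0769 without prep 4, at means of 0.60, 0.63 and 0.54. Chemoreceptor, F-box and pseudogene features were chosen for comparison after the values were seen. They were taken as likely weak, but their signal was not measured here. Over 1842 such features the median ratio was 0.32, the upper quartile 0.59 and the 90th percentile 0.90. Of these features 19.4% were higher, beside 17.0% of all tested features. The mean of lbp-3 lay near their upper quartile and that of lbp-1 just under their 90th percentile, while the signal behind each spot is unknown.

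The members with means below 0 were each measured on 3 arrays. For lbp-5 (W02D3.7), which has been linked to fat storage, the log2 ratios were -0.77, -0.19 and -1.35 on preps 1, 3 and 4. All 3 were below 0 and prep 3 was nearest to it. The mean was -0.77 ± 0.58 (SD, n = 3 preps; adjusted p = 0.0609, limma, 95% interval -1.402 to -0.14 without adjustment). Without prep 3, on its 2 other arrays, the mean of lbp-5 was -1.06 and passed (adjusted p = 0.0416, limma). It did not pass without prep 1 (-0.77, adjusted p = 0.153, limma) or prep 4 (-0.48, adjusted p = 0.245, limma). With preps 1 and 2, which share a title prefix, averaged first, its adjusted p in limma was 0.0480. As lbp-5 has no value on prep 2, its own values and mean were the same there, and only the other features of the fit had changed. For lbp-4 (ZK742.5) the ratios were -0.82, -1.06 and 0.17 on preps 1, 2 and 3, so that prep 3 stood on the other side of 0. Its mean was -0.57 ± 0.65 (SD, n = 3 preps, adjusted p = 0.155, limma, interval -1.25 to 0.11). Without prep 3, on its 2 other arrays, the mean of lbp-4 was -0.94 and passed (adjusted p = 0.0438, limma). It did not pass without prep 1 (-0.44, adjusted p = 0.385, limma) or prep 2 (-0.32, adjusted p = 0.480, limma).

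**Figure D2:**
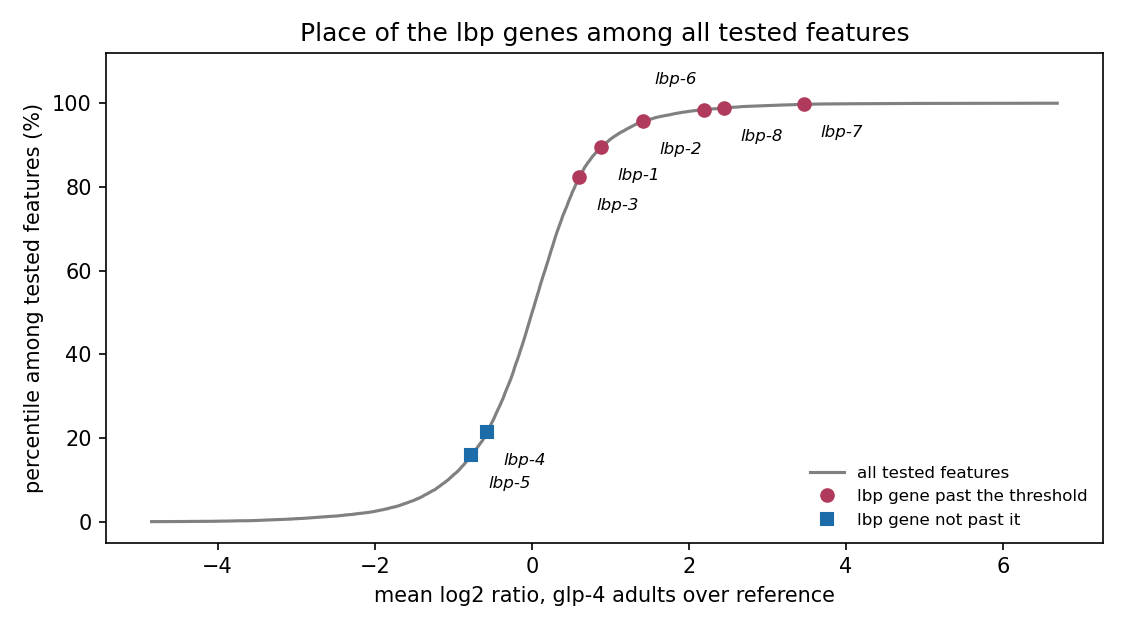
Percentile of each lbp gene (vertical axis, percent of tested features with a lower mean) against its mean log2 ratio of glp-4 adults over reference (horizontal axis), on the curve of all 19981 tested features. Circles passed the threshold and squares did not; lbp-7, lbp-8, lbp-6 and lbp-2 lie above the 95th percentile and lbp-4 and lbp-5 below the 22nd.

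In order of their means the members ran from lbp-7 through lbp-8, lbp-6, lbp-2, lbp-1, lbp-3 and lbp-4 to lbp-5. As the same values set this order, mean differences between next members were bound to be positive where both had all 4 arrays. A difference was taken as beyond the spread where its mean exceeded its SD and its sign was the same on every array measured. Differences of log2 ratios on the same array held beyond the spread for lbp-6 over lbp-2 (0.78 ± 0.18, above 0 on 4 of 4 arrays), for lbp-2 over lbp-1 (0.53 ± 0.19, 4 of 4 arrays) and for lbp-3 over lbp-4 (1.11 ± 0.64, 3 of 3 arrays). They did not for lbp-7 over lbp-8 (1.02 ± 1.28, 3 of 4 arrays), lbp-8 over lbp-6, lbp-1 over lbp-3 (0.28 ± 0.25, 3 of 4 arrays) or lbp-4 over lbp-5 (0.16 ± 0.29, 1 of 2 arrays). These differences between members were described without a test. For lbp-1, lbp-2, lbp-3, lbp-6 and lbp-7, 5 members, the highest value came from prep 4, and for lbp-5 the lowest did. The SD over all values of an array was 1.06 on prep 4, beside 0.87, 1.21 and 0.91 on preps 1, 2 and 3. The share of all features with their highest value on prep 4 was not counted, so whether the lbp genes differ in this is unknown. Preps 3 and 4 share a title date: their mean for lbp-7 was 3.94 beside 2.99 for preps 1 and 2, and for lbp-8 it was 2.07 beside 2.83.

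Most lbp genes lie in small groups on the chromosomes, by the RefSeq gene order of assembly WBcel235, which was used for order and names only. The genes lbp-3, lbp-1 and lbp-2 follow each other on chromosome X without another protein-coding gene between them, and all 3 were higher. The mean of lbp-2 exceeded that of lbp-3 by 0.81 ± 0.27 on the log2 scale, with the same sign on 4 of 4 arrays. Beside this group, the alpha-tubulin gene tba-9 and the F-box gene fbxb-71 did not pass (means 0.05 and -0.44), nor did the sulfatase gene sul-1 (0.51).

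On chromosome I, lbp-6 and lbp-5 are separated by 1 gene and went apart. The ratio of lbp-6 exceeded that of lbp-5 by 3.12 ± 0.997 on the log2 scale, 8.70-fold, with the same sign on the 3 arrays that measured both. The gene between them, ant-1.2, a mitochondrial ADP/ATP carrier gene, had 0.26 ± 0.36 and did not pass, and the nonsense-mediated decay gene smg-5 on the other side of lbp-5 was lower (-1.17 ± 0.23, 3 arrays, adjusted p = 0.00499, limma). The ratios of lbp-6 and lbp-5 thus lay on opposite sides of 0. Of this pair only lbp-6 passed, while lbp-5 did not (-0.77 ± 0.58, 3 arrays, adjusted p = 0.0609, limma).

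On chromosome V, lbp-7 and lbp-8 stand near each other with 3 protein-coding genes between them that did not pass: T22G5.3 (0.26 ± 0.18), the chemoreceptor gene srsx-19 (0.31 ± 0.51) and the saposin-like gene spp-12 (0.11 ± 0.64). Around this stretch, the carnitine palmitoyltransferase gene cpt-5 was higher (1.52 ± 0.49, adjusted p = 0.00189, limma), as was the cytochrome P450 gene cyp-35C1 (2.93 ± 0.46, adjusted p = 0.000153, limma). The genes T22G5.1 (-0.10) and sptl-3, of sphingolipid synthesis (0.46), did not pass, although sptl-3 passed without prep 1 (0.65, adjusted p = 0.0451, limma). Beside lbp-4, mig-6 (0.62 ± 0.42) and txt-5 (0.72 ± 0.34) were higher at adjusted p-values of 0.0436 and 0.0180 in limma, while ZK742.4 (0.29) did not pass; without 1 prep the call of mig-6 was lost for preps 1, 2 and 3 (means 0.53, 0.48 and 0.66), as it was with array weights (adjusted p = 0.0583) and with preps 1 and 2 averaged first (adjusted p = 0.105), and that of txt-5 was lost for preps 2 and 4 (0.71 and 0.57). Of the 17 tested neighbours of the 9 lbp loci, 4 passed as higher and 1 as lower, while the other 12 did not, beside 17.0% higher and 20.9% lower among all tested features.

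**Figure D3:**
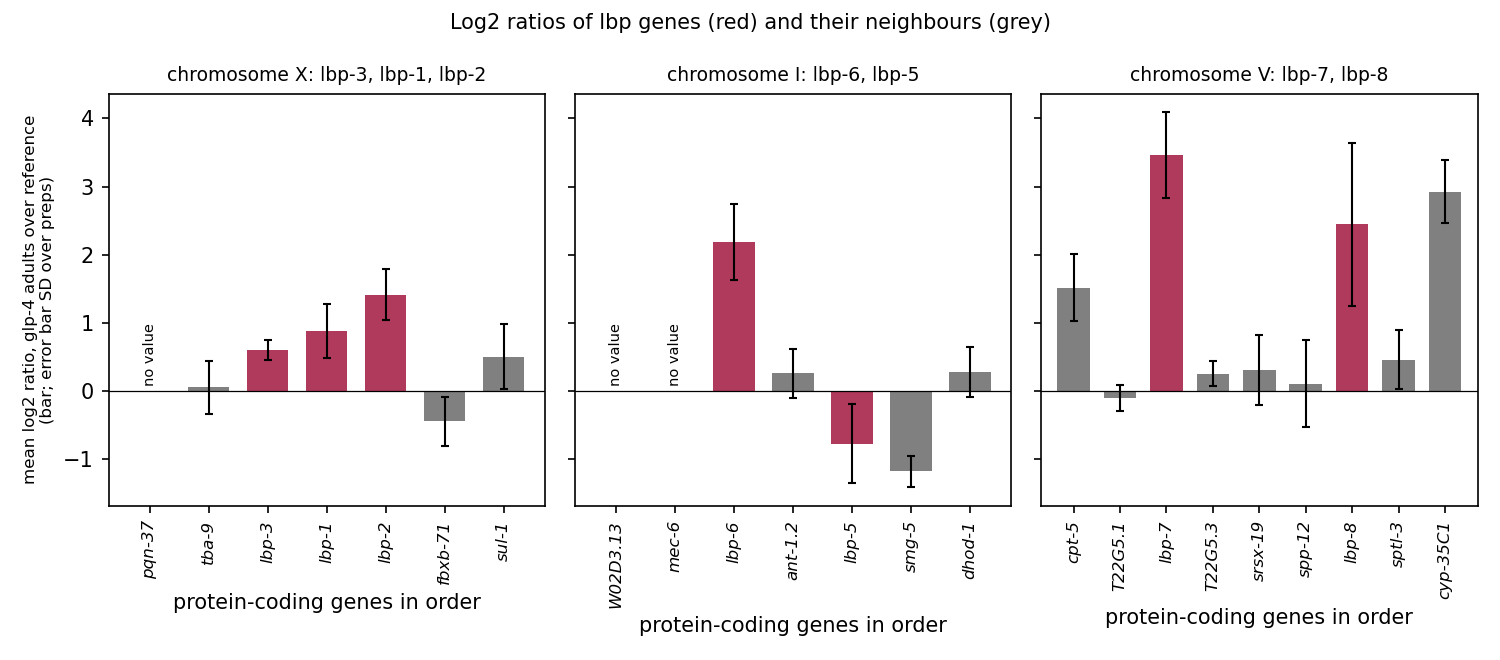
Mean log2 ratio of glp-4 adults over reference (vertical axis, bars from 0, error bars SD over preps) for lbp genes in red and up to 2 protein-coding neighbours on each side in grey, in gene order on chromosomes X, I and V. On chromosome I the bars of lbp-6 and lbp-5 point in opposite directions, though lbp-5 did not pass. On chromosome V the 3 genes between lbp-7 and lbp-8 are near 0.

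The list of genes for the LBP-8 signal, nuclear receptors and fat mobilisation was called about as often as all features were. Of its 14 genes, not all known to act with LBP-8, 2 were higher, 3 were lower and the other 9 did not pass. These counts stand beside 17.0% higher and 20.9% lower among all tested features, and the median of the list was -0.31. The receptor gene nhr-80 was higher, with log2 ratios of 0.75, 0.79, 1.00 and 0.91 on preps 1 to 4 (mean 0.86 ± 0.12, adjusted p = 0.00386, limma). The receptor gene nhr-49 was lower, with -0.93, -0.88, -0.48 and -0.60 (mean -0.72 ± 0.22, adjusted p = 0.0109, limma). The ratios of these receptors lay on opposite sides of 0 on each array. The lipase gene lipl-4, upstream of LBP-8, had 0.29, -1.38, -0.68 and -0.42 and did not pass (mean -0.54 ± 0.69, adjusted p = 0.144, limma), but passed without prep 1 (mean -0.82, adjusted p = 0.0451) and with preps 1 and 2 averaged first (adjusted p = 0.0428), and nhr-66, a partner of NHR-49, did not pass either (-0.33 ± 0.22).

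The other 3 genes of that list past the threshold, named after their values were seen, were the nuclear receptor gene nhr-62 (1.31 ± 0.38), the hormone-sensitive lipase gene hosl-1 (-1.52 ± 0.50) and the acyl-CoA synthetase gene acs-2, a known NHR-49 target. The ratios of acs-2 were 0.15, -3.57, -1.30045 and -2.68 on preps 1 to 4, with prep 1 apart from the others. Its mean was -1.85 ± 1.63 (adjusted p = 0.0354, limma), which did not pass without prep 2 (-1.28, adjusted p = 0.111), prep 3 (-2.04, adjusted p = 0.0674) or prep 4 (-1.58, adjusted p = 0.117), or with preps 3 and 4, which share a title date, averaged first (-1.81, adjusted p = 0.0794). Without prep 1 the mean of acs-2 was -2.52 (adjusted p = 0.00813, limma).

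Genes of fatty acid beta-oxidation were often higher beside lbp-6, lbp-7 and lbp-8. Of 32 tested beta-oxidation genes, 21 were higher and 1 was lower, and the other 10 did not pass; their median was 0.98, against 17.0% higher and a median of 0.00 among all tested features. The peroxisomal acyl-CoA oxidase genes acox-1.5 (3.42 ± 0.15, adjusted p = 7.31e-05) and acox-1.2 (3.39 ± 1.02, adjusted p = 0.000687, both limma) and the enoyl-CoA hydratase gene ech-9 (2.83 ± 0.35) had the highest means of the list, beside 3.46 for lbp-7. The lowest members past the threshold were the carnitine palmitoyltransferase genes cpt-6 (-0.78 ± 0.45) and cpt-2 (0.57 ± 0.38) and the acyl-CoA dehydrogenase gene acdh-7 (0.62 ± 0.07). Calls were lost without 1 prep for cpt-6 (means -0.56 without prep 1 and -0.83 without prep 2), for cpt-2 (0.57 without prep 2, 0.41 without prep 3 and 0.57 without prep 4) and for acdh-7 (0.59 without prep 3). The gene cpt-2, at an adjusted p of 0.0486 in limma, also failed with arrays centred on their median (adjusted p = 0.0555), centred and scaled (adjusted p = 0.0719), averaged by title date (adjusted p = 0.114), with 1 probe per gene (adjusted p = 0.05003) and with every probe on its own (adjusted p = 0.05005), and so passed in 7 of 15 alternatives.

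Other lipid-binding families were measured on the same arrays. Of the 8 far genes, which encode fatty acid and retinol binding proteins found in nematodes, 3 were higher and 2 lower. Their median was 0.38, and among all tested features 17.0% were higher and 20.9% lower. The gene far-2 was highest (1.52, 2.00, 1.87 and 1.94 on preps 1 to 4, mean 1.83 ± 0.22, adjusted p = 0.000300, limma), followed by far-6 (1.32 ± 0.39) and far-8 (0.72 ± 0.39), and far-7 (-1.73 ± 0.83) and far-4 (-0.68 ± 0.32) were lower. The call of far-8 was lost without prep 2, 3 or 4 (means 0.66, 0.73 and 0.58) or with preps 3 and 4 averaged first (adjusted p = 0.0610, limma). That of far-4 was lost without prep 1 or 2 (-0.57 and -0.59), with preps 1 and 2 averaged first (adjusted p = 0.0526) and with 1 probe per gene (-0.23, adjusted p = 0.309). Of 6 tested genes for acyl-CoA binding proteins, small carriers of activated fatty acids, acbp-1 (1.31 ± 0.41) and acbp-3 (1.19 ± 0.40) were higher, 0 were lower and 4 did not pass, beside the same shares of all features, with a median of 0.10.

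**Figure D4:**
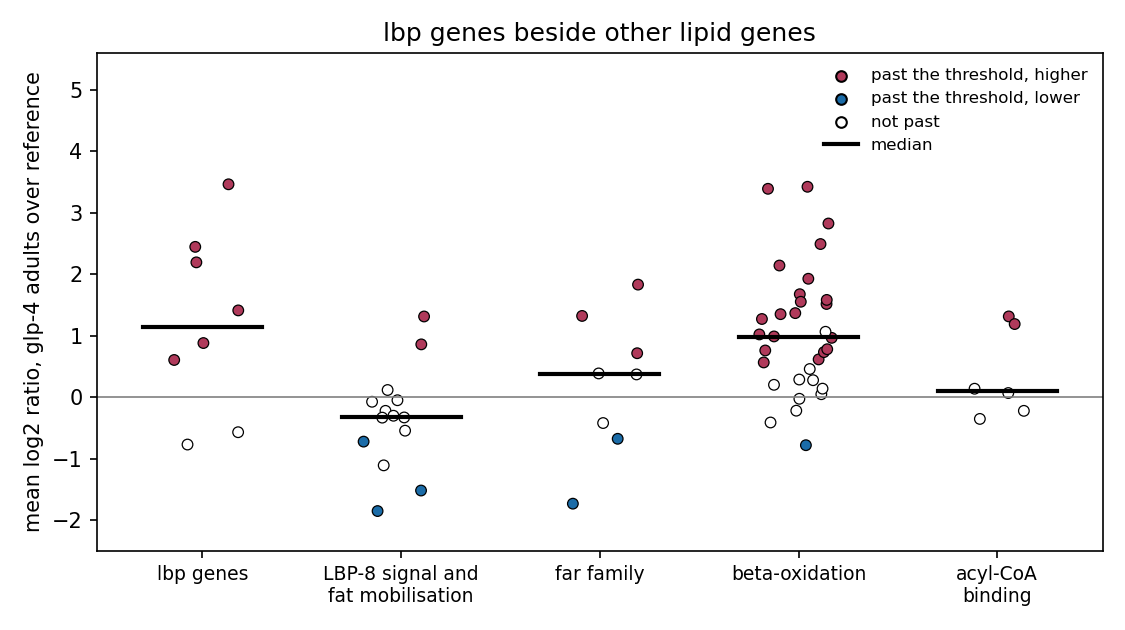
Mean log2 ratios of glp-4 adults over reference (vertical axis) for the lbp genes and the 4 other lists of lipid genes, 1 point per gene, red where past the threshold and higher, blue where past it and lower, white where not past; bars are medians. The lbp genes and the beta-oxidation genes have medians of 1.15 and 0.98, and the genes of the LBP-8 signal and fat mobilisation one of -0.31.

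The genes most like lbp-7 over the 4 arrays, by the root mean square difference of log2 ratios among 14413 other named genes measured on all 4, were cuticle collagen genes. They were col-184 (0.13), col-8 (0.22) and col-149 (0.24), with means of 3.42 ± 0.64, 3.61 ± 0.57 and 3.25 ± 0.68. These genes were picked on the same 4 values, so their likeness is a description. For lbp-5, over its 3 measured arrays and 14579 genes, the closest were gon-14 (0.08), F53A9.7 (0.10) and the lectin-like gene clec-239 (0.10). Their means were -0.71 ± 0.44, -0.88 ± 0.56 and -0.79 ± 0.63, of which the first 2 passed the threshold and clec-239, measured on 3 arrays, did not (adjusted p = 0.0638, limma). The calls of gon-14 and F53A9.7 were lost without prep 1 (-0.68 and -0.87), prep 2 (-0.72 and -0.79) or prep 4 (-0.55 and -0.72), and clec-239 passed without prep 3 (-1.13). With preps 1 and 2 averaged first gon-14 did not pass (adjusted p = 0.0558), and with preps 3 and 4 averaged first clec-239 did (adjusted p = 0.0496).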

How the data were processed

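The series deposited log2 ratios of both channels for 21632 spots on each of 4 arrays. The log2 scale was read from the values: below -2, 100% of the values on each array gave, once unlogged, a ratio in whole steps of 0.001, to within 1e-06. The labels name no scanner, background correction, normalization, spot filter or dyes. Signal over background is unknown, and having 4 arrays limits the precision. Array medians lay between -0.07 and 0.08 and were kept, and 118 to 547 spots per array had no value. Across features, arrays correlated with Pearson's r from 0.727 to 0.796.

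The platform annotation gave 1 gene for 16450 probes. Probes of 1 gene were averaged per array. Means of log2 ratios were tested two-sidedly for a difference from 0 by lmFit and eBayes of limma (version 3.58.1, under R 4.3.3). The 19981 features measured on 3 or more arrays entered, with Benjamini-Hochberg adjustment over all of them. As the reference is the only wild-type RNA, the spread between wild-type samples is left out. Tables and plots used Python 3.11.15, pandas 2.3.3 and matplotlib 3.10.9. The fit was tested on simulated data. Members and lists were chosen with earlier results of these data known. Named genes were all lbp members, lipl-4, nhr-49, nhr-80 and nhr-66, up to 3 highest and 3 lowest genes past the threshold per other list, the neighbours of members, and the 3 genes most like the highest and the lowest member. Alternatives were centring, scaling, the array minimum, probe handling, robust eBayes, array weights, averaged arrays of a shared title date or prefix, and leaving out each prep.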

Additional observations from a re-analysis of the deposited data

How the results depend on the processing

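No paired analysis was possible because the 4 preps formed the only group. The random block by title date or prefix could not be fitted, since 1 shared pair among 4 arrays gave no estimate of the correlation, and averaging the arrays that share a title date or prefix was used instead, a choice made after seeing the data. Over 15 alternatives each, lbp-1, lbp-2, lbp-6, lbp-7 and lbp-8 were past the threshold in all, with ranges of 0.71 to 1.03, 1.24 to 1.51, 1.95 to 2.35, 3.21 to 3.70 and 1.96 to 2.85. The gene lbp-3 passed in 12 of 15, lbp-4 in 1 of 14 and lbp-5 in 2 of 14, with the values given above. The number of lower lbp members, 0, became 1 with arrays of a shared title prefix averaged, through lbp-5, whose own values did not change. It ranged from 0 to 2 when 1 prep was left out, and the number of higher members from 5 to 6. The number of higher features was 3403 and ranged from 2073 (without prep 4) to 2789 (without prep 1) when 1 prep was left out. The number of lower far genes, 2, was 1 with 1 probe per gene (far-4 at -0.23) and with arrays of a shared title prefix averaged, and 1 to 2 without 1 prep; that of lower beta-oxidation genes, 1, was 0 to 1 without 1 prep. Leaving out arrays also removes degrees of freedom; other causes were not tested. Of 43 other named genes with 638 values in all, 591 kept direction and side of the threshold, 42 changed side and 5 changed sign. The sign changed for tba-9 (-0.16 to 0.22 without 1 prep), srsx-19 (-0.0047 with 1 probe per gene), spp-12 (-0.11 to 0.34 without 1 prep, and -0.02 without prep 1) and gtnt-27, beside lbp-9 (-0.049 to 0.25 without 1 prep), and these 4 genes had not passed. Dim spots cannot be set apart, because no signal over background was at hand.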
